A study of Homo sapiens with 3 samples.

Results

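Expression in PC3 cells carrying shUSP16#2, the hairpin that left less USP16 transcript, was set against expression in PC3 cells carrying shUSP16#1. The comparison used 2 of the 3 RNA-seq libraries of the series, 1 for each hairpin, and the library of shCON cells served only to place directions. PC3 is an androgen-independent prostate cancer cell line. Per the study's methods, the hairpins were cloned into the lentiviral vector pLKO.1 and stable cells were selected with puromycin, so the groups share the cell line and the selection and differ in the hairpin. The labels call shCON a control and describe its library as RFP, a name that the study's text does not explain. The series text calls shCON a vector control. No source used here says how many independent infections or clones stand behind each library. Each condition had 1 library, so there is no replicate spread, no test and no error for any value below, and every difference describes these libraries.

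USP16 is a ubiquitin-specific protease. It is known to remove ubiquitin from histone H2A, a mark that is laid down by Polycomb repressive complexes and is erased before mitosis, and the study addressed it as a deubiquitinase of the transcription factor c-Myc. A short hairpin RNA is processed into a duplex whose antisense strand guides cleavage of a matching transcript, and bases 2 to 8 of that strand, the seed, can also pair with the 3' untranslated regions of unrelated transcripts. Hairpins against the same gene therefore share the intended target and not the seed, and the questions here were which programmes lay further from shCON with less USP16, which moved with 1 hairpin alone and which went in opposite directions.

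The hairpin sequences are shown because target site and seed are what differs between these libraries by design. The sense strands were read from the study's list of hairpins, the antisense strands are their reverse complements, and capitals mark the seed.
shUSP16#1 sense: gccagaagaaatcatgtttat
shUSP16#1 antisense: aTAAACATgatttcttctggc
shUSP16#2 sense: cggtgatattccacaagattt
shUSP16#2 antisense: aAATCTTGtggaatatcaccg
On GRCh38 with GENCODE release 29, the shUSP16#1 site matched chr21:29054296-29054316 on the forward strand, in the 3' untranslated region within exon 19, the last of the 19 exons of ENST00000334352.8. The shUSP16#2 site lay in the coding sequence and crossed a splice junction, from chr21:29053942-29053958 in exon 18 to chr21:29054066-29054069 in exon 19. Each site was found in 3 of the 4 protein-coding transcripts of the gene. The seeds differ, and the letters a 3' untranslated region needs to pair with them are ATGTTTA for shUSP16#1 and CAAGATT for shUSP16#2.

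Levels are given as TPM, a read density scaled for transcript length and for the total of the library. USP16 itself was at 19.92 TPM in shCON, 3.5 TPM with shUSP16#1 and 1.08 TPM with shUSP16#2. The level under shUSP16#1 was 17.6% of shCON, that under shUSP16#2 was 5.42% of shCON, and shUSP16#2 left 30.9% of the transcript that remained under shUSP16#1. Both hairpin libraries were far below shCON, and shUSP16#2 was the lower. The epithelial keratins and adhesion genes that mark PC3 (KRT8, KRT18, KRT19, EPCAM and CDH1) summed to 2542 TPM in shCON and to 2454 and 2676 TPM with shUSP16#1 and shUSP16#2. The single markers did not move together. In the same order KRT19 was at 507, 838 and 958 TPM, EPCAM at 274, 166 and 136 TPM and CDH1 at 65.8, 50.6 and 46.4 TPM. KRT8 was at 748, 622 and 642 TPM and KRT18 at 947, 778 and 893 TPM. Of the androgen-responsive luminal markers 2 of 5 reached 1 TPM in any library, and of the immune markers only CD68 did. Of the endothelial markers PECAM1 alone reached 1 TPM, and the endothelial sums were 0.46, 0.92 and 1.39 TPM. Of the fibroblast markers COL1A1 alone did, at 4.19 TPM in shCON, 10.7 TPM with shUSP16#1 and 4.78 TPM with shUSP16#2.

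Differences are given as log2(TPM + 1) under shUSP16#2 minus log2(TPM + 1) under shUSP16#1, a scale that understates the differences of low genes. They were taken for 13637 genes that averaged 1 TPM or more across shCON, shUSP16#1 and shUSP16#2. Sequencing depth cannot be read from TPM and is unknown here. The hairpin libraries were close over most genes, with 10915 (80.0%) within 1.5-fold. The distribution lay below 0: its median was -0.21, its quartiles were -0.46 and 0.01, and 73.4% of genes were lower under shUSP16#2. A level at least 2-fold lower under shUSP16#2 was found for 488 genes (3.58% of those tested) and one at least 2-fold higher for 220 (1.61%). Once centred on that median the split turned, with 270 genes lower and 311 higher, so most list medians below are also given relative to all genes.

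Lower and higher genes were of different kinds. Of the lower genes 302 were protein-coding, which was 2.63% of the 11493 protein-coding genes tested. Among the higher genes 49 were protein-coding, or 0.426%, while 77 of the 220 were shorter than 200 bases and 91 were listed at 0 under shUSP16#1. These short genes are mostly structural RNAs. The 5S rRNA genes, which encode an RNA of the large ribosomal subunit, summed to 0 TPM in shCON, 1021 TPM with shUSP16#1 and 26902 TPM with shUSP16#2. The 5.8S rRNA genes summed to 4983, 587 and 13121 TPM, the snoRNA genes, whose products guide modification of ribosomal RNA, to 706, 272 and 1559 TPM, and the U1 genes and pseudogenes of the spliceosome to 594, 204 and 2904 TPM. Genes under 200 bases held 1.15% of all TPM in shCON, 0.5% with shUSP16#1 and 5.4% with shUSP16#2. In 3 of these 4 families the shUSP16#1 library was below shCON and the shUSP16#2 library above it, and whether the share of such RNA reflects the cells or the libraries cannot be told apart.

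Single copies within these families went both ways. RNA5S7, a 5S gene, was listed at 0 in shCON and under shUSP16#1 and was at 4165 TPM under shUSP16#2, whereas RNA5S15 was listed at 0 in shCON and under shUSP16#2 and was at 183 TPM under shUSP16#1. RNA5-8SN2 was listed at 0 in shCON and under shUSP16#1 and was at 5247 TPM under shUSP16#2. Copies of these genes are nearly identical, so the division of reads among them is uncertain and the sums are the safer values.

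Among protein-coding genes averaging 5 TPM or more, the lowest differences were those of DRC3, LUZP6, NBPF10, TNFSF15, KIAA1549L and PTHLH. DRC3, a subunit of the regulatory complex of ciliary dyneins, was at 0.27 TPM in shCON, 14.3 TPM with shUSP16#1 and 0.52 TPM with shUSP16#2. TNFSF15, a cytokine of the tumour necrosis factor family, was at 2.8, 11.6 and 1.58 TPM. For both genes shUSP16#1 was the library apart. With the pseudocount of 1, shUSP16#2 lay within 1.5-fold of shCON for both. For TNFSF15 this held narrowly, with shUSP16#2 minus shCON at -0.56.

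PTHLH encodes parathyroid hormone-related protein, a factor known for its part in bone metastasis. Its level was 26.1 TPM in shCON, 53.2 TPM with shUSP16#1 and 10.8 TPM with shUSP16#2, so the hairpins lay on different sides of the control. KIAA1549L instead was lower with each hairpin in turn, at 24.0, 10.4 and 1.35 TPM. FERMT2, which encodes the integrin activator kindlin-2, was at 34.0 TPM in shCON, 20.4 TPM with shUSP16#1 and 4.98 TPM with shUSP16#2.

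Several of the lowest values belong to genes whose reads may be shared with others. LUZP6 was at 74.4, 65.1 and 5.76 TPM in shCON, shUSP16#1 and shUSP16#2. It overlaps MTPN on the same strand, and MTPN was at 92.4, 43.8 and 27.3 TPM, with a difference of -0.66. GNG10, a gamma subunit of heterotrimeric G proteins, and its read-through with DNAJC25 were lower by about the same amount, -1.85 and -1.87, while DNAJC25 differed by -0.37. NBPF10, at 18.9, 15.8 and 1.92 TPM, belongs to a family of near-identical genes in which NBPF14 differed by -1.15 and NBPF9 by -0.49. Of the 50 named protein-coding genes 17 are overlapped by another tested gene, and the strand setting of the authors' counting is not given in the sources used here.

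The highest protein-coding differences were those of POU2F1, USP41, MERTK, PDZK1IP1, HFM1 and HCN3. POU2F1 encodes the transcription factor Oct-1, an activator of histone H2B genes among others, and was at 9.07 TPM in shCON, 1.48 TPM with shUSP16#1 and 21.3 TPM with shUSP16#2. MERTK, a receptor tyrosine kinase for the clearance of dying cells, was at 7.57, 8.2 and 37.3 TPM, so shUSP16#1 was near shCON and shUSP16#2 alone was higher. The opposite placement was seen for PDZK1IP1, a small membrane protein, at 36.8 TPM in shCON, 7.13 TPM with shUSP16#1 and 32.3 TPM with shUSP16#2.

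USP41 was listed at 0 under shUSP16#1 and was at 13.7 TPM in shCON and 6.11 TPM under shUSP16#2. It is a near-copy of the interferon-induced protease USP18, which was at 9.79, 10.2 and 10.3 TPM. IGFBP3, a binding protein for insulin-like growth factors, was among the most abundant of these genes, at 341 TPM in shCON, 214 TPM with shUSP16#1 and 630 TPM with shUSP16#2. HFM1, known as a helicase of meiotic recombination, was listed at 599, 343 and 1297 TPM. Whether all reads listed for HFM1 come from its mRNA was not tested.

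**Figure D1:**
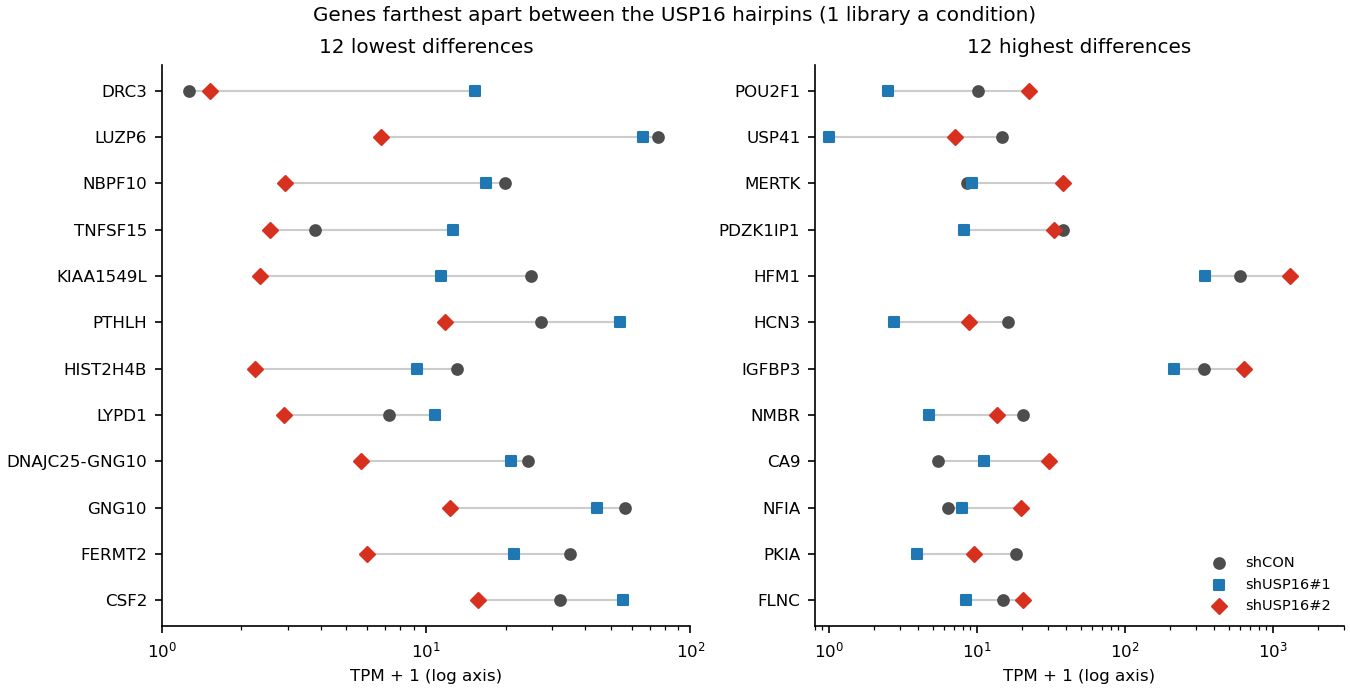
Levels of the 12 protein-coding genes (mean of at least 5 TPM) with the lowest and the 12 with the highest difference between the hairpins, as TPM + 1 on a log axis, 1 point for each of the 3 libraries. In the left panel the shUSP16#2 point lies below the shUSP16#1 point for each gene by the choice of genes, and shCON lies on either side, as for PTHLH at 26.1 TPM between 10.8 and 53.2 TPM. In the right panel HFM1 and IGFBP3 stand at the highest levels, with 1297 and 630 TPM under shUSP16#2.

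Each gene at least 2-fold apart between the hairpins was then placed relative to shCON. A gene was called further lower or further higher where shUSP16#1 was at least 1.5-fold from shCON and shUSP16#2 at least 2-fold further on the same side. Further lower levels were found for 86 genes (0.631% of those tested) and further higher levels for 20 (0.147%). The median of the further lower genes was -0.77 for shUSP16#1 minus shCON and -2.0 for shUSP16#2 minus shCON. Their median transcript GC content was 40.5%, against 49.9% over all tested genes. Centred on the median of all genes, 19 genes were further lower and 33 further higher.

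The further lower group held 67 protein-coding genes, USP16 among them. PTPN11, which encodes the phosphatase SHP2 of receptor tyrosine kinase signalling, was at 62.0 TPM in shCON, 28.6 TPM with shUSP16#1 and 8.62 TPM with shUSP16#2. FAM126A, a component of the phosphatidylinositol 4-kinase complex at the plasma membrane, was at 12.2, 7.13 and 1.98 TPM. The group also held MCL1, a survival protein of the BCL2 family, at 75.3, 48.1 and 20.8 TPM, and BCL2A1 of the same family, at 38.2, 17.7 and 6.19 TPM. These were the only genes of 18 tested in the BCL2 family list that differed 2-fold between the hairpins (11.1% lower, against 3.58% of all genes), and the median of that list was 0.07 above that of all genes.

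Among the 20 further higher genes 5 were protein-coding and 10 were shorter than 200 bases. CA9, a carbonic anhydrase of the cell surface known as a hypoxia target, was at 4.44 TPM in shCON, 10.2 TPM with shUSP16#1 and 29.5 TPM with shUSP16#2. LOXL4, a lysyl oxidase that crosslinks collagen, was at 1.06, 4.21 and 10.2 TPM. PYCARD, the adaptor of inflammasomes, was at 6.14, 9.93 and 20.9 TPM. The step from shUSP16#1 to shUSP16#2 was 1.45 for CA9, 1.10 for LOXL4 and 1.00 for PYCARD.

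Placement with 1 hairpin alone required that hairpin to be at least 2-fold from shCON and from the other hairpin, with the other hairpin within 1.5-fold of shCON. Under shUSP16#2 alone 160 genes were lower (1.17%) and 90 were higher (0.66%), and 50 of these 90 were shorter than 200 bases. Centred on the median of all genes, this balance turned to 73 lower and 130 higher. Besides LUZP6 and NBPF10, the lower ones included LYPD1, a membrane-anchored protein of the Ly6 family, at 6.23 TPM in shCON, 9.81 TPM with shUSP16#1 and 1.9 TPM with shUSP16#2. Besides MERTK, the higher ones included NFIA, a nuclear factor I transcription factor, at 5.33, 6.86 and 18.8 TPM, and LIMD1, a LIM domain adaptor, at 12.6, 12.8 and 28.7 TPM.

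Under shUSP16#1 alone 24 genes were lower (0.176%) and 90 were higher (0.66%). MCUB, an inhibitory subunit of the mitochondrial calcium uniporter, was at 30.8 TPM in shCON, 13.3 TPM with shUSP16#1 and 33.0 TPM with shUSP16#2. TPRN, which encodes taperin of sensory hair cells, was at 10.2, 37.2 and 10.4 TPM. DRC3, TNFSF15 and the histone gene HIST1H3H were also higher under shUSP16#1 alone.

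In opposite directions, 42 genes were at least 1.5-fold above shCON under shUSP16#1 and at least 1.5-fold below it under shUSP16#2 (0.308%), and 42 had the reverse placement (0.308%). Centred on the median of all genes, the groups held 25 and 49 genes. The first group held 22 protein-coding genes. Besides PTHLH, it included SPTSSB, a small subunit of serine palmitoyltransferase, at 43.5 TPM in shCON, 89.6 TPM with shUSP16#1 and 26.8 TPM with shUSP16#2. It also included the growth factor gene CSF2 (GM-CSF) at 31, 54.3 and 14.7 TPM and the histone gene HIST1H2AC at 61.6, 132 and 40.4 TPM. The reverse group held 5 protein-coding genes, with POU2F1, HFM1 and IGFBP3 the 3 of them that averaged at least 5 TPM.

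A smaller set was above or below shCON with both hairpins and nearer to it under shUSP16#2, the hairpin with less USP16 left. It held 19 genes that were higher with both (0.139%) and 21 that were lower with both (0.154%). GDF15, a stress-induced cytokine, was at 18.5 TPM in shCON, 141 TPM with shUSP16#1 and 46.2 TPM with shUSP16#2. NOX5, a calcium-activated NADPH oxidase, was at 10.8, 68.2 and 19.0 TPM, and APOBEC3C, a cytidine deaminase that restricts retroviruses, at 68.8, 265 and 118 TPM. On the lower side were the cation channel gene HCN3, at 15.1, 1.73 and 7.74 TPM, and NMBR, the neuromedin B receptor, at 19.5, 3.7 and 12.6 TPM. The remaining 91 lower genes (0.667%) and 23 higher genes (0.169%) met none of these definitions. PTGS2, the inducible cyclooxygenase, was 1 of them, at 19.3, 34.2 and 12.8 TPM.

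**Figure D2:**
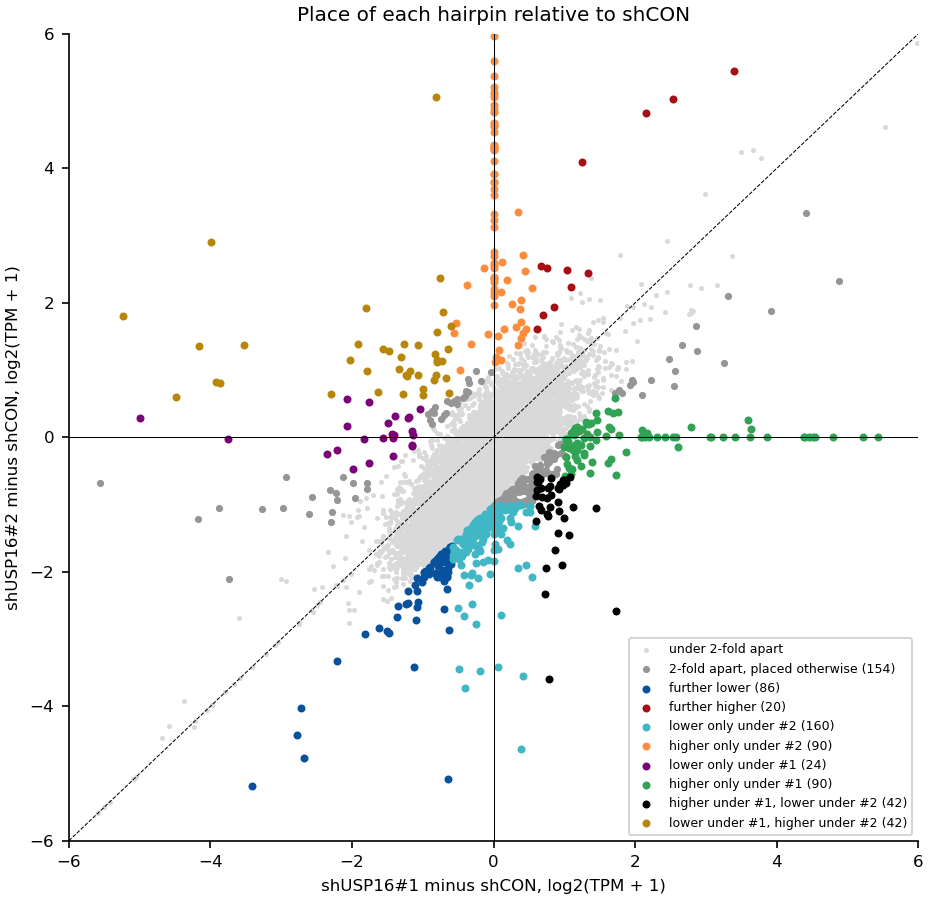
Each point is a tested gene, with shUSP16#1 minus shCON on the horizontal axis and shUSP16#2 minus shCON on the vertical axis, both as log2(TPM + 1), coloured by its placement, with the number of genes in brackets. Both axes subtract the same shCON library, points on the dashed line have equal levels under both hairpins, 154 genes at least 2-fold apart fit no coloured placement, and 32 genes lie outside the axes, which end at 6. The further lower genes (86) sit at the lower left below the line, and the opposite groups of 42 sit in the upper left and the lower right.

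Apart from the structural RNA families, the list that lay lowest under shUSP16#2 was that of NF-kB targets and secreted cytokines, which holds chemokines that attract neutrophils, interleukins and colony-stimulating factors, many of them known as secretory products of PC3. Of its 29 tested members 12 were at least 2-fold lower under shUSP16#2 than under shUSP16#1 (41.4%, against 3.58% of all genes) and 1 was at least 2-fold higher. The median difference was -0.87, or -0.66 relative to all genes, and it was -0.42 relative to all genes with the GC trend removed. The median was -0.32 for shUSP16#1 minus shCON and -1.03 for shUSP16#2 minus shCON. Of the 12 lower members 5 were further lower, 5 were lower under shUSP16#2 alone, and CSF2 went in opposite directions.

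The chemokines came in both forms. CXCL8 (interleukin-8) was at 616 TPM in shCON, 462 TPM with shUSP16#1 and 149 TPM with shUSP16#2, and CXCL2 at 113, 75.1 and 35.6 TPM, each within 1.5-fold of shCON under shUSP16#1. CXCL5 was at 360, 53.6 and 21.2 TPM, CXCL6 at 346, 134 and 53.2 TPM and CXCL3 at 370, 120 and 51.1 TPM, so most of their distance from shCON was already present under shUSP16#1. CCL20, which attracts cells through CCR6, was at 56.2, 26.1 and 8.98 TPM.

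Among the interleukins and colony-stimulating factors, IL6 was at 198 TPM in both shCON and shUSP16#1 and at 71.9 TPM under shUSP16#2. CSF3 (G-CSF) was at 67.8, 82.4 and 30.9 TPM and IL11 at 12.8, 9.74 and 3.72 TPM. IL1A and IL1B, the ligands of the interleukin-1 receptor, differed by less than 2-fold between the hairpins, by -0.87 and -0.61. The secreted proteases differed as well: MMP9 was at 5.4, 3.04 and 0.52 TPM and PLAU, the urokinase, at 1028, 1675 and 872 TPM.

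Regulators on the same list were split. TNFAIP3 was at 29.4, 24.2 and 15.2 TPM and BIRC3 at 5.95, 2.72 and 1.4 TPM, with differences of -0.64 and -0.63. On the scale that is not centred, NFKB1, NFKB2 and RELB lay closer together between the hairpins. RELB differed by 0.31, where the median of all genes was -0.21. NFKB1, which encodes the p105 precursor of p50, was at 22.6, 10.9 and 10.2 TPM, so it was lower with both hairpins and little different between them. NFKB2 was at 28.1, 30.9 and 28.1 TPM, RELB at 15.7, 12.4 and 15.5 TPM and the target ICAM1 at 57.8, 58.9 and 55.3 TPM. The immune cell markers summed to 42.4, 34.5 and 31.9 TPM in shCON, shUSP16#1 and shUSP16#2, nearly all of it CD68, and PTPRC, which marks leukocytes, was at most 0.14 TPM in any library.

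The replication-dependent histones, whose mRNAs supply chromatin in S phase and mostly end in a stem-loop rather than a poly(A) tail, formed the other low list. Of 41 tested members 11 were at least 2-fold lower under shUSP16#2 (26.8%), 1 was higher, and 90.2% were below the median of all genes. The median difference was -0.78, or -0.57 relative to all genes, and it was -0.59 relative to all genes with the GC trend removed. The placement differed from that of the cytokines: the median was 0.39 for shUSP16#1 minus shCON and -0.39 for shUSP16#2 minus shCON. The summed level over the list was 1542 TPM in shCON, 2165 TPM with shUSP16#1 and 1323 TPM with shUSP16#2.

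Each histone type had a median below that of all genes. H2A genes, whose protein carries the mark that USP16 removes, had a median difference of -0.89 over 12 tested genes, of which 11 were above shCON under shUSP16#1 and 9 were below it under shUSP16#2. These counts were 9 and 11 for 12 H2B genes, 3 and 5 for 7 H3 genes, 4 and 6 for 7 H4 genes and 3 and 1 for 3 linker H1 genes. The medians of all tested genes relative to shCON were -0.17 under shUSP16#1 and -0.37 under shUSP16#2. Most tested genes therefore lay below shCON with either hairpin. The histone counts were not set against the share of all genes on each side. Between the hairpins the median differences were -0.82 for H2B, -0.78 for H3, -0.58 for H4 and -0.68 for H1 genes. HIST2H2BE was at 11.4 TPM in shCON, 24.3 TPM with shUSP16#1 and 8.41 TPM with shUSP16#2, and HIST3H2A at 36.7, 85.6 and 39.4 TPM. HIST2H4B had a near-identical copy, HIST2H4A, at 85.6, 138 and 57.7 TPM, so the lower value of HIST2H4B is uncertain. HIST1H2AD was the 1 higher member and was listed at 0 under shUSP16#1. The structural RNAs, most of which also lack a poly(A) tail, moved the other way between these libraries (5S sums of 1021 and 26902 TPM), and the part of RNA selection in either was not tested.

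**Figure D3:**
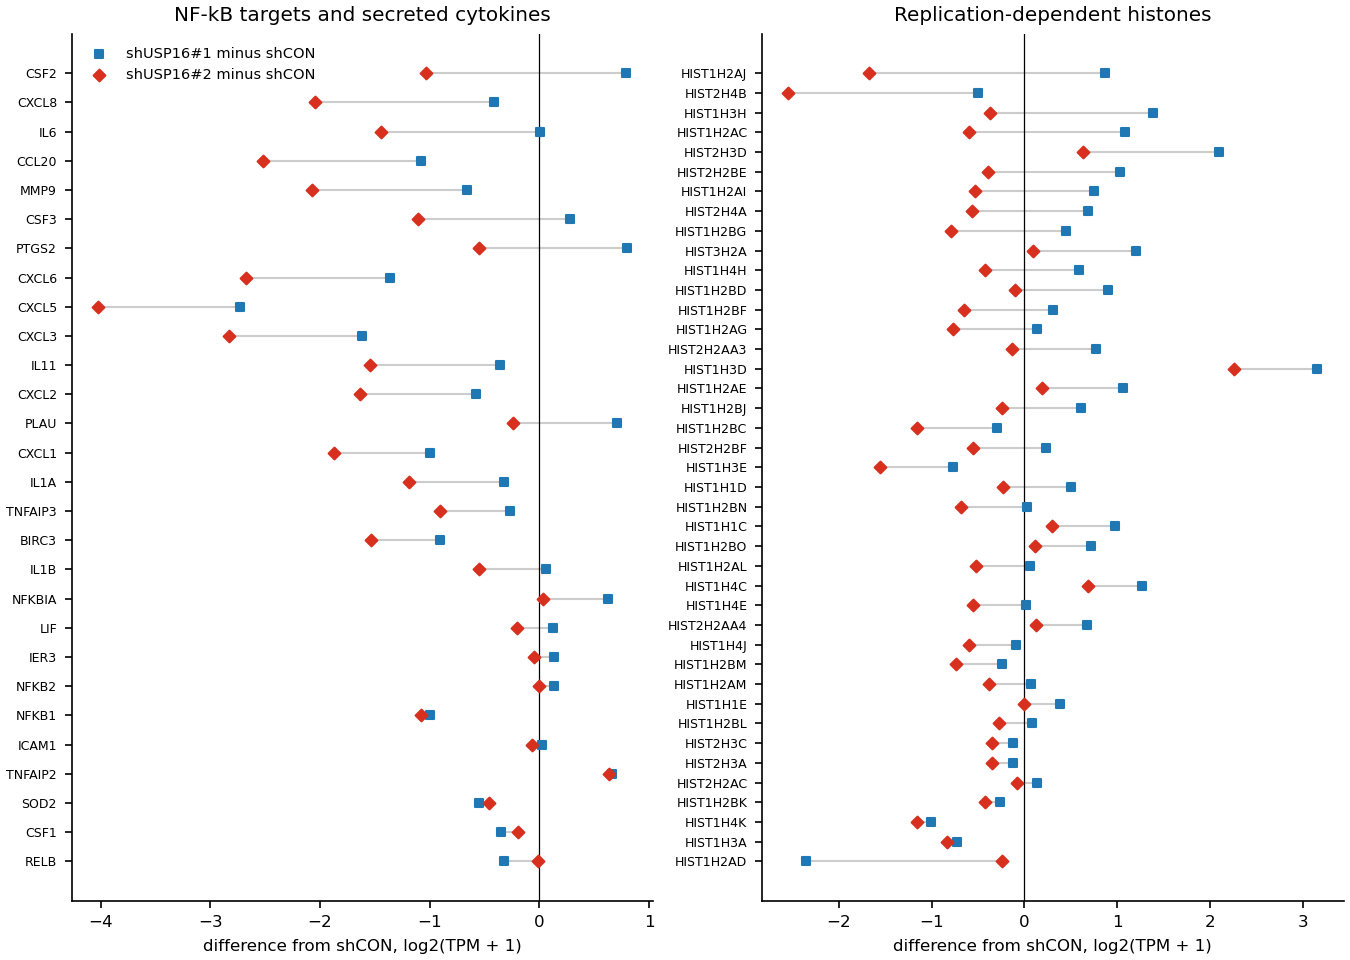
Tested members of the cytokine list (28 of 29 drawn) and the histone list (41), ordered by the difference between the hairpins, with shUSP16#1 minus shCON as squares and shUSP16#2 minus shCON as diamonds, as log2(TPM + 1). In the cytokine panel the diamonds of CXCL5, CXCL3, CXCL6 and CCL20 reach -4.02, -2.83, -2.68 and -2.52 with their squares also below 0. In the histone panel most squares lie above 0 and most diamonds below it, with medians of 0.39 and -0.39.

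The cell division programmes were lower with both hairpins, and only some of them lay further down under shUSP16#2. The G2/M list of 53 genes had medians of -0.84 for shUSP16#1 minus shCON and -1.34 for shUSP16#2 minus shCON. Its median difference was -0.41, or -0.21 relative to all genes, 81.1% of its members were below the median of all genes, and 2 were at least 2-fold lower (3.77%, near the 3.58% of all genes). Those 2 were ECT2, the exchange factor of cytokinesis, at 36.2, 16.2 and 7.1 TPM, and TTK, a kinase of the spindle checkpoint, at 15.1, 7.53 and 3.17 TPM. AURKA, a spindle pole kinase, was at 144, 58.1 and 62.4 TPM and did not go further. With the GC trend removed the G2/M median was 0.09 below that of all genes.

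The S-phase list of 42 genes was also lower with both hairpins, with medians of -0.81 and -1.0, but its median difference of -0.18 was 0.03 above that of all genes and no member was 2-fold apart. RAD51AP1 was at 18.7, 7.11 and 3.85 TPM, whereas TYMS, the thymidylate synthase, was at 243, 81.0 and 133 TPM, nearer to shCON under shUSP16#2. The 34 genes of homologous recombination and the Fanconi pathway had a median difference of -0.49, or -0.28 relative to all genes, with 82.4% of members below the median of all genes and 0 past 2-fold. FANCD2 was at 14.9, 12.5 and 6.51 TPM, ATM at 9.76, 5.76 and 2.84 TPM and RAD51B at 6.44, 3.13 and 5.13 TPM. The GC content of this list was low, at 41.7%, and with the GC trend removed its median lay 0.11 below that of all genes. The 27 kinesins were 0.23 below all genes, and 0.19 below with the GC trend removed. The proliferation marker MKI67 was at 29.6 TPM in shCON, 12.1 TPM with shUSP16#1 and 8.78 TPM with shUSP16#2, and GAPDH, a housekeeping enzyme, was at 3582, 3912 and 3620 TPM.

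The Myc lists lay near the median of all genes between the hairpins. MYC itself was at 238 TPM in shCON, 209 TPM with shUSP16#1 and 173 TPM with shUSP16#2, the last being 82.6% of shUSP16#1. Of 276 tested genes of the c-Myc gene signature 2 were at least 2-fold lower under shUSP16#2 (0.725%) and 0 higher, and the median difference was -0.13, which is 0.08 above that of all genes. The 2 were PRNP, the prion protein gene, at 333, 231 and 115 TPM, and SNORA61, which was listed at 0 in shCON and under shUSP16#2 and was at 9.58 TPM under shUSP16#1. Of 58 genes of Myc targets V2 none was 2-fold apart, and the median difference was -0.14, or 0.06 above all genes. Their medians relative to shCON were -0.42 under shUSP16#1 and -0.46 under shUSP16#2. Under the alternatives the median of the signature ranged from 0.04 below to 0.09 above that of all genes, and the median of Myc targets V2 from 0.06 below to 0.09 above.

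Other lists lay above the median of all genes under shUSP16#2. The median difference also rose with level, from -0.28 for genes averaging 1 to 5 TPM to -0.06 over 100 TPM. The part of level in these lists was not tested. Under the alternatives the medians relative to all genes ranged from 0.21 to 0.36 for glycolysis and from 0.10 to 0.28 for HIF targets. They ranged from 0.12 to 0.26 for cholesterol, 0.08 to 0.23 for fatty acid synthesis and 0.09 to 0.24 for cytosolic ribosomal proteins. MHC class I presentation, 17 genes that load peptides for display to T cells, had a median difference of 0.17, or 0.38 relative to all genes, with 1 member at least 2-fold higher and 0 lower. HLA-F was at 3.25, 4.84 and 11.9 TPM, HLA-B at 42.1, 57.1 and 93.5 TPM, and NLRC5, the activator of class I genes, at 0.99, 1.16 and 2.57 TPM. B2M, the light chain, was at 1072, 954 and 857 TPM and so did not share the order of HLA-B. The interferon-stimulated genes as a list had a median difference of -0.33, or -0.12 relative to all genes, with IFITM1 at 34.2, 101 and 54.9 TPM.

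Glycolysis, with 21 genes, had a median difference of 0.13, or 0.34 relative to all genes, and 0 genes past 2-fold. PFKFB3, which makes the activator of phosphofructokinase, was at 19.0, 12.9 and 19.8 TPM and PGAM1 at 528, 592 and 362 TPM. The 31 HIF targets had a median difference of 0, or 0.21 relative to all genes, with CA9 the 1 member past 2-fold. BNIP3, a mitophagy receptor, was at 73.4, 52.5 and 87.1 TPM, while VEGFA, the angiogenic growth factor, was at 68.4, 97.0 and 59.7 TPM. The lists of glycolysis and HIF targets share 6 genes.

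Cholesterol synthesis and uptake, with 25 genes, was lower with both hairpins to about the same degree, with medians of -0.68 and -0.85 relative to shCON, a median difference of 0.03, or 0.24 relative to all genes, and 0 genes past 2-fold. INSIG1, the brake of sterol sensing, was at 25.6, 6.02 and 10.8 TPM, nearer to shCON under shUSP16#2. In fatty acid synthesis, 15 genes with a median 0.20 above all genes, ELOVL6, a fatty acid elongase, was at 2.6, 1.48 and 10.7 TPM, and ACSL4, which activates arachidonic acid, at 17.6, 8.47 and 3.65 TPM. The 81 cytosolic ribosomal protein genes lay at 0.01 with quartiles around 0 and 0 genes past 2-fold, 0.21 above all genes.

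The protein-coding genes of the mitochondrial genome lay lower under shUSP16#2. All 13 differences were below 0, as were 73.4% of all tested genes. The median was -0.50, or -0.29 relative to all genes, and 1 gene was at least 2-fold lower, against 3.58% of all genes. MT-ND5, MT-ND2, MT-ND6 and MT-ND3 were between 0.05 and 0.10 below the median of all genes, and MT-ND1 was 0.08 above it. MT-CYB, a subunit of complex III, was at 1009, 931 and 457 TPM, and MT-CO1, a subunit of complex IV, at 6316, 9329 and 5688 TPM. MT-ND1 was nearly level at 3491, 3546 and 3251 TPM. The 79 nuclear-encoded genes of the respiratory chain had a median of -0.06, which is 0.15 above all genes. Among them ATP5MD was past 2-fold lower, at 585, 619 and 274 TPM, with a difference of -1.18.

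Adhesion genes were split. ITGB1, the beta subunit of most collagen and fibronectin receptors, was at 500 TPM in shCON, 346 TPM with shUSP16#1 and 147 TPM with shUSP16#2, and the matrix protein TNC at 69.9, 62.0 and 28.8 TPM. ITGB4, the beta subunit of the hemidesmosome, went the other way, at 102, 219 and 431 TPM. Of 32 tested integrins, laminins and collagens 2 were at least 2-fold lower (6.25%, against 3.58% of all genes) and 0 higher, with a median 0.21 below all genes. Of the 39 Polycomb genes and H2A deubiquitinases the 2 that were 2-fold lower (5.13%) were USP16, the target itself, and USP12, a deubiquitinase also described for H2A, at 14.3, 8.37 and 3.65 TPM. BMI1, a subunit of the complex that ubiquitinates H2A, was at 20.3, 11.3 and 5.85 TPM, USP3 at 9.32, 4.84 and 7.75 TPM and MYSM1 at 6.1, 2.71 and 3.32 TPM. The median of that list was 0.07 below all genes.

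**Figure D4:**
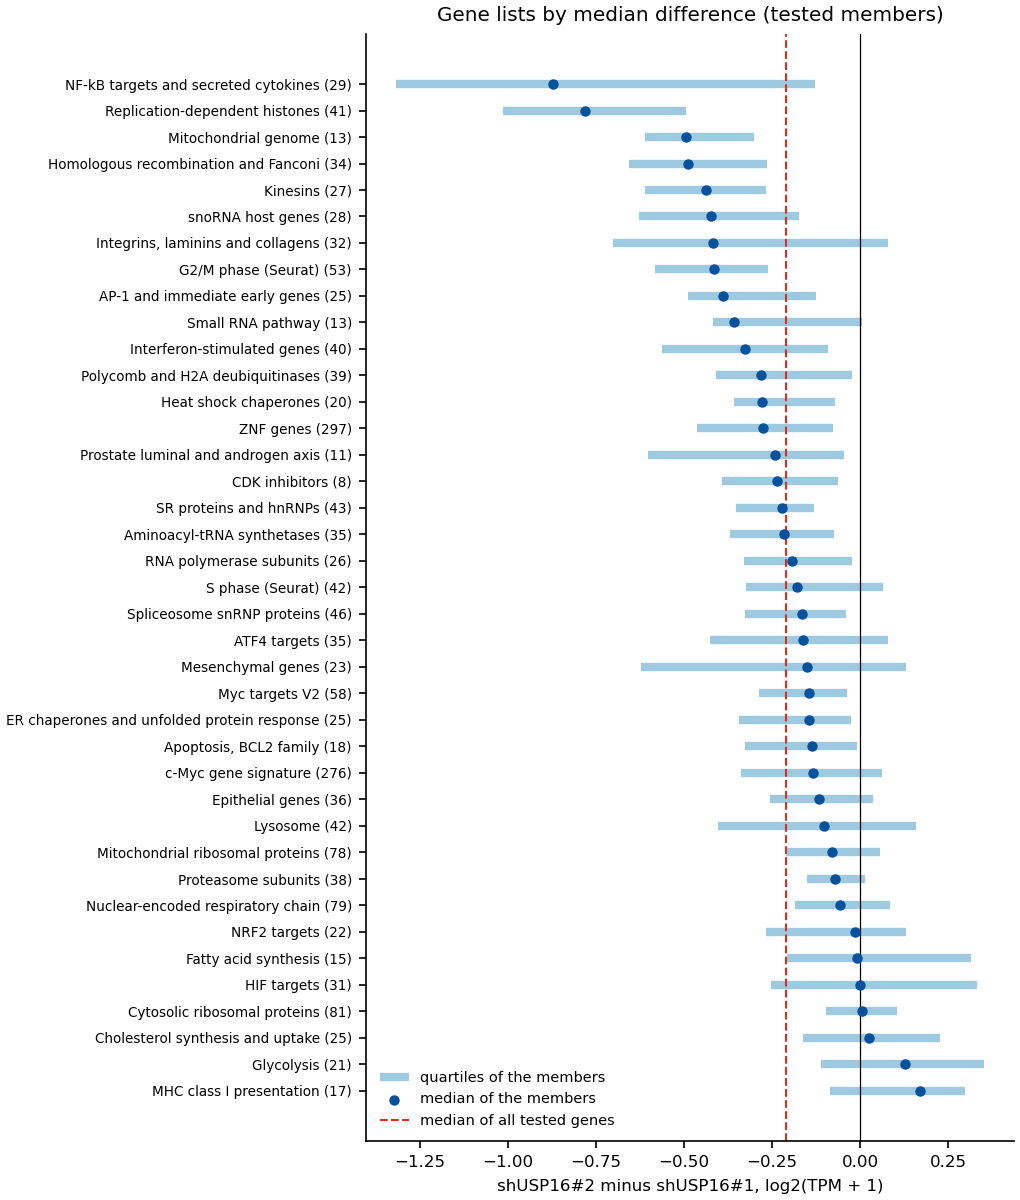
Median (points) and quartiles (bars) of the difference between shUSP16#2 and shUSP16#1, as log2(TPM + 1), over the tested members of each gene list, with the number of members in brackets and the median of all 13637 tested genes as a dashed line at -0.21. The cytokine list (-0.87) and the histone list (-0.78) lie farthest to the left, and MHC class I presentation (0.17) lies farthest to the right. The structural RNA families are not drawn.

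Differences between the hairpins went with the GC content of the transcript. The tested genes were split into 10 bins of equal size by GC content, and the median difference was -0.48 in the lowest bin and -0.02 in the highest. The rank correlation over 13296 genes with a GC content was 0.38, and it was 0.43 among protein-coding genes and 0.07 among the others, where genes of 1 pair of libraries are not independent points. The same order was seen for each hairpin relative to shCON: medians ran from -0.61 to 0.25 under shUSP16#1 and from -1.06 to 0.24 under shUSP16#2. With the GC trend removed, 401 genes were at least 2-fold lower and 183 higher, and 34 were further lower in place of 86.

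**Figure D5:**
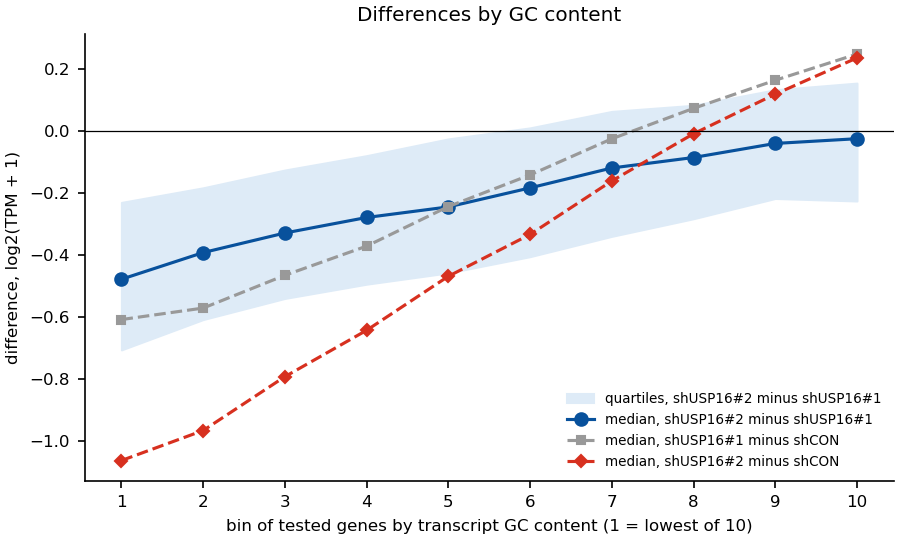
Median difference between the hairpins (line with circles, quartiles shaded) and medians of each hairpin minus shCON (dashed lines), as log2(TPM + 1), in 10 bins of equal size by GC content of the transcript (1 is the lowest). The median difference between the hairpins runs from -0.48 in bin 1 to -0.02 in bin 10, and both hairpins lie above 0 in the 2 highest bins.

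Seed matches were counted on the transcript strand of the annotated 3' untranslated regions of 11203 tested protein-coding genes. The shUSP16#1 letters ATGTTTA were found in 2237 (20.0%) and the shUSP16#2 letters CAAGATT in 1150 (10.3%). The median difference between the hairpins was -0.33 for genes with only the shUSP16#1 match, -0.26 for genes with only the shUSP16#2 match, -0.35 for genes with both and -0.17 for genes with neither. Genes with a match had longer untranslated regions and lower GC content: the median length was 2267 bases with only the shUSP16#1 match and 650 bases with neither, and GC content was 43.3% and 52.5%. With the GC trend removed the 4 medians were -0.23, -0.21, -0.17 and -0.20. Levels at least 2-fold lower under shUSP16#2 were found for 4.77% of genes with only the shUSP16#1 match, 1.83% with only the shUSP16#2 match, 3.43% with both and 2.2% with neither. Those at least 2-fold higher were 5 of 1741, 2 of 654, 3 of 496 and 32 of 8312 genes in the same order. A gene lowered by shUSP16#1 alone has a difference above 0, and the part of the seeds was not tested. Of the 12 genes with the lowest differences 11 had an annotated untranslated region, 4 of these held the shUSP16#1 letters, GNG10 and its read-through among them, and 0 held the shUSP16#2 letters. Of the 12 genes with the highest differences 11 had one as well, MERTK held the shUSP16#1 letters and POU2F1 held both.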

How the data were processed

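RNA was measured in 3 libraries of PC3 cells, 1 each for shCON, shUSP16#1 and shUSP16#2. Per the labels, total RNA was taken up in Trizol and libraries were made with an Illumina TruSeq RNA kit. TPM values, to 2 decimals, were deposited by the authors in 1 table that came from the Majorbio Cloud Platform per the study's methods. The submitters' processing notes name CASAVA, HISAT2 and the build hg19, and the quantification tool, the annotation and the strand setting are not given in the sources used here. The table holds 60930 entries, 307 of them assembled without a gene name, and 3 columns that repeat others and were not used.

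Of entries that share a name the one with the highest mean TPM was kept, which left 59719 names and dropped 1211 entries. Of the names, 57308 matched GENCODE release 29, which gave gene class, GC content and 3' untranslated regions. Hairpin sites were matched to its transcripts, so their coordinates are on GRCh38, while expression was not placed by coordinates. A pseudocount of 1 and a minimum mean of 1 TPM were used. With 1 library a condition no test was made. Counts past 2-fold and medians of gene lists were taken beside those of all tested genes, and the c-Myc gene signature was taken from the study as a list of names only. Myc targets V2, the Seurat phase lists and all other lists were written from knowledge of them. The hairpins, lists and definitions were chosen with earlier results of these data known.

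Named genes were USP16, MYC, MKI67 and GAPDH, the 12 lowest and 12 highest protein-coding genes averaging 5 TPM or more, the 4 largest of each placement, the 4 lowest and 4 highest non-coding genes, the 2 lowest and 2 highest of each list, and the 6 lowest and 6 highest KEGG and GO terms. Overlapping or copied genes (MTPN, DNAJC25, the other NBPF genes, HIST2H4A and USP18), the other members named for the cytokine and histone lists, and HLA-B, BMI1, MYSM1 and RNU1-1 were picked with their values in view. The values of some list members are not reported here.

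The alternatives tried were to centre on the median of all genes, a pseudocount of 0.1, no minimum, a minimum of 5 TPM, removal of the GC trend by subtracting the median of each of 50 GC bins and adding back that of all genes, protein-coding genes alone and genes of 200 bases or more alone, both rescaled to the same total. The procedures were tested on simulated data. Python 3.11.15, numpy 2.4.6, pandas 2.3.3 and matplotlib 3.10.9 were used.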

Additional observations from a re-analysis of the deposited data

Results flagged for a closer look

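Genes with the hairpin libraries on different sides of shCON were set apart because their levels differed from the 1 shCON library in opposite directions. At least 1.5-fold above shCON under shUSP16#1 and at least 1.5-fold below it under shUSP16#2 were 42 genes, and 42 genes had the reverse placement. Centred on the median of all genes the groups held 25 and 49 genes, and among protein-coding genes alone, rescaled, 16 and 7. Before centring, 22 genes of the first group were protein-coding, 7 had a library listed at 0, and the median difference between the hairpins was -1.68. Of the reverse group of 42 genes 5 were protein-coding, 16 had a library listed at 0, and the median difference was 2.47. The difference between the hairpins was not tested, since each has 1 library.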

How the results depend on the processing

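With 1 library a condition, no replicate could be left out. No paired analysis was possible because no condition has a second library. Differences between library preparations cannot be told apart from those between hairpins, and depth is unknown. In the order lower, higher, further lower, further higher, lower only under shUSP16#2, higher only under shUSP16#2, lower only under shUSP16#1, higher only under shUSP16#1, higher then lower and lower then higher, the counts of genes were 488, 220, 86, 20, 160, 90, 24, 90, 42 and 42. Over the 7 alternatives, 35 of 70 such counts stayed within 1.5 times. A pseudocount of 0.1 TPM gave 1112 lower, 302 further lower, 39 further higher, 414 lower only under shUSP16#2, 44 lower only under shUSP16#1 and 82 higher then lower. Centring gave 270 lower, 19 further lower, 33 further higher, 73 lower and 130 higher only under shUSP16#2, 25 higher then lower and 49 lower then higher. Without a minimum 148 genes were higher only under shUSP16#2 and 179 only under shUSP16#1. A minimum of 5 TPM, which tested 9301 genes, gave 273 lower, 130 higher, 98 lower and 46 higher only under shUSP16#2, 15 lower and 42 higher only under shUSP16#1, 20 higher then lower and 27 lower then higher. With the GC trend removed 34 were further lower and 26 lower then higher. Protein-coding genes alone gave 232 lower, 77 higher, 42 further lower, 8 further higher, 82 lower and 23 higher only under shUSP16#2, 11 lower and 32 higher only under shUSP16#1, 16 higher then lower and 7 lower then higher. Without genes under 200 bases 56 were further lower and 50 higher only under shUSP16#2. Beyond the fewer genes that a minimum or a gene class leaves, the causes were not tested. Of the list medians recomputed 289 stayed within 1.5-fold and 5 moved further, of the values of named genes 1407 stayed and 25 moved further, and none of those that moved further changed sign. Relative to all genes the cytokine median ranged from -0.69 to -0.42 and the histone median from -0.77 to -0.50. The medians of G2/M (-0.33 to -0.09), recombination (-0.44 to -0.11) and MHC class I (0.26 to 0.41) kept their side, and that of the S-phase list ran from -0.09 to 0.13.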

Other observations

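Of the terms in the deposited annotation with 15 to 500 tested genes, the KEGG term with the lowest median difference between the hairpins was systemic lupus erythematosus (67 genes, -0.52), followed by alcoholism (114 genes, -0.46). In each term 38 of the genes were replication-dependent histones. Other types of O-glycan biosynthesis (19 genes, -0.42) had 0 genes past 2-fold, and rheumatoid arthritis (48 genes, -0.38) had 9 genes at least 2-fold lower and 0 higher. Malaria (21 genes, -0.38) and the fly MAPK pathway (71 genes, -0.37) came next. At the other end primary immunodeficiency (32 genes, 1.09) held 16 5S rRNA genes, and autoimmune thyroid disease (15 genes, 0.28), allograft rejection (16 genes, 0.26) and graft-versus-host disease (18 genes, 0.10) each held 10 HLA genes. ABC transporters (24 genes) lay at 0.17 and the pentose phosphate pathway (25 genes) at 0.07, with 0 genes past 2-fold in either. In all, 283 KEGG terms were described.

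Among 2130 GO terms the lowest medians were those of positive regulation of vascular endothelial growth factor production (16 genes, -0.64, 4 genes at least 2-fold lower) and of cell migration in sprouting angiogenesis (15 genes, -0.61, 2 lower). The nucleosome (69 genes, -0.58) held 41 histones, and the nuclear nucleosome, telomere organization and replication-dependent nucleosome assembly held 14, 11 and 12. The highest were defense response to Gram-negative bacterium (24 genes, 0.12), scavenger receptor activity (18 genes, 0.08), components of the lumenal side of the endoplasmic reticulum membrane (17 genes, 0.08, 7 of them HLA genes), NADH dehydrogenase activity (16 genes, 0.07), activation of phospholipase C (15 genes, 0.06) and transport ATPases (30 genes, 0.06).

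Within lists not described so far, the snoRNA host genes lay 0.21 below all genes, with SNHG25 at 13.3 TPM in shCON, 25.2 TPM with shUSP16#1 and 8.91 TPM with shUSP16#2, and that list moved from 0.34 below to 0.08 above all genes over the alternatives. Of the immediate early genes, with a median 0.18 below all genes, NR4A1, an orphan nuclear receptor, was at 2.77, 3.05 and 7.39 TPM and DUSP6, a phosphatase of ERK, at 11.8, 14.2 and 5.72 TPM. Of the mesenchymal genes TGFBI was at 32.8, 24.1 and 10.3 TPM and SNAI2, the transcription factor Slug, at 21.8, 17.9 and 8.28 TPM, while the median of the list was 0.06 above all genes. Of the epithelial genes, with a median 0.09 above all genes, GRHL2 was at 12.6, 18.6 and 7.73 TPM. Among 297 tested ZNF genes 10 were at least 2-fold lower (3.37%, near the 3.58% of all genes) and 1 higher, the median was 0.07 below all genes, with ZNF33B at 2.88, 9.57 and 0.87 TPM. The CDK inhibitors, with a median 0.03 below all genes, held 1 of 8 past 2-fold, CDKN2B at 5.88, 7.66 and 3.1 TPM. Of the 43 SR proteins and hnRNPs, with a median 0.01 below all genes, 1 was past 2-fold, PTBP2, a splicing regulator best known in neurons, at 2.02, 1.83 and 0.35 TPM.

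Lists of ATF4 targets, ER chaperones, NRF2 targets, heat shock chaperones, lysosome, spliceosome snRNP proteins, RNA polymerase subunits, aminoacyl-tRNA synthetases, proteasome subunits, mitochondrial ribosomal proteins, the small RNA pathway and the prostate luminal axis had medians between -0.15 and 0.19 relative to all genes, and of these lists ATF4 targets alone held genes past 2-fold, GDF15 and CTH. Within the U1 family, RNU1-1 was at 178 TPM in shCON, 19.8 TPM with shUSP16#1 and was listed at 0 with shUSP16#2, while the 14 tested U1 genes and pseudogenes had a median difference of -1.10 between the hairpins, below that of the cytokine list, and the family sums were 594, 204 and 2904 TPM.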
